A study of Mus musculus with 23 samples.

Results

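The 9 genes described here set how glucose enters a cell and where its carbon goes next: Slc2a1, Slc2a2 and Slc2a3 (glucose transport), Hk1 and Hk2 (phosphorylation of glucose), G6pc2 (removal of that phosphate), Ldha and Slc16a1 (lactate formation and export) and Pcx (pyruvate carboxylation). They were chosen by symbol rather than by a measured value, though with earlier results of these data known. Each symbol was found once among 28096 genes measured in sorted alpha cells and once among 22412 genes measured in tissue. Glucose enters cells down its gradient through carriers of the SLC2A family and is trapped when a hexokinase adds a phosphate. Hexokinases 1 and 2 bind glucose tightly. In adult mouse beta cells Slc2a2 is the main glucose transporter, G6pc2 is islet-restricted, and Ldha and Slc16a1 are known as genes held at very low levels, so that pyruvate is fed to mitochondria, in part through Pcx.

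The libraries came from mice with disrupted glucagon receptor (GCGR), and the series title ties loss of that receptor to pancreatic neuroendocrine tumors arising from alpha cells, which make glucagon. Homozygous knockout alpha cells (n = 5) were set against heterozygous alpha cells (n = 3). Both kinds of cells were sorted by flow cytometry from mice that had received intraperitoneal tamoxifen (200 mg/kg on 5 days), and the islets were isolated 14 to 21 days after that. Dissected tumors (n = 7) were set against non-tumor pancreatic tissue (n = 8), and all 15 of these libraries carry the homozygous knockout genotype. They are marked as untreated, while the protocol text shared by the samples mentions tamoxifen, so whether these mice received it is unclear. No wild-type library is among the 23. The sources used here do not give the Cre driver, the strain, the age of the mice or whether a tumor and a non-tumor sample came from the same animal. Nothing in the labels says which libraries came from separate animals, so the p-values measure the spread between these libraries, which may be technical in part.

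The values were taken to be RPKM (reads scaled to transcript length and to the mapped reads of a library), a unit read from the values themselves. On that reading levels can be compared between genes, except where near-identical copies make a level uncertain, as for Ldha (below). Log2 differences were taken on log2(RPKM + 1), which understates changes of genes with low values. Genes above 0 numbered 13334 to 16536 per knockout alpha cell library, 13124 to 16579 per heterozygous one, 15237 to 16110 per tumor and 12871 to 14700 per non-tumor sample. Glucagon (Gcg) made up 61.3% to 69.5% of the summed RPKM in knockout alpha cells, 61.3% to 67.2% in heterozygous alpha cells, 27.8% to 46.8% in tumors and 0.00477% to 0.0733% in non-tumor tissue. The targeted gene, Gcgr, was listed at 0 in 4 of 5 knockout and 3 of 3 heterozygous alpha cell libraries and in 7 of 7 tumors, so its level does not check the genotype labels. Non-tumor tissue was mostly exocrine by its markers: the summed level of 12 acinar genes was 3481 to 105192 RPKM in tumors, against 355857 to 467277 RPKM in non-tumor tissue. In these bulk samples fewer cells of a type and less RNA per cell cannot be told apart.

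G6pc2 was the member with the highest median in 3 of the 4 groups. Its median was 6.01 RPKM in knockout alpha cells, 4.82 RPKM in heterozygous alpha cells and 12.0 RPKM in tumors. Non-tumor tissue had a median of 5.52 RPKM, and there Ldha stood above it at 8.67 RPKM. In knockout alpha cells the order by median was G6pc2, Slc2a1, Hk1, Slc2a2, Slc2a3, Pcx and Slc16a1, and in heterozygous alpha cells G6pc2, Slc2a3, Hk1, Slc2a1, Slc2a2, Slc16a1 and Pcx. Ldha and Hk2 were at the bottom in both, and Hk2 was listed at 0 RPKM in all 8 libraries. Ldha, lactate dehydrogenase A, was listed at 0 in 3 of 5 knockout and 2 of 3 heterozygous libraries, and its highest value was 0.21 RPKM. The median of Ldha was 6.74 RPKM in tumors, in the separate tissue table. Hk1 had a median of 10.9 RPKM in tumors, against 1.23 RPKM in non-tumor tissue, and of 1.34 RPKM in knockout and 1.24 RPKM in heterozygous alpha cells. The order by median was G6pc2, Hk1, Ldha, Pcx, Slc2a1, Slc2a2, Slc16a1, Slc2a3 and Hk2 in tumors, and Ldha, G6pc2, Pcx, Slc2a2, Slc2a1, Hk1, Slc16a1, Hk2 and Slc2a3 in non-tumor tissue. In each tissue the ranges of neighbours in that order overlapped. The alpha cell and tissue values stand in separate tables, so no test was made across them.

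**Figure D1:**
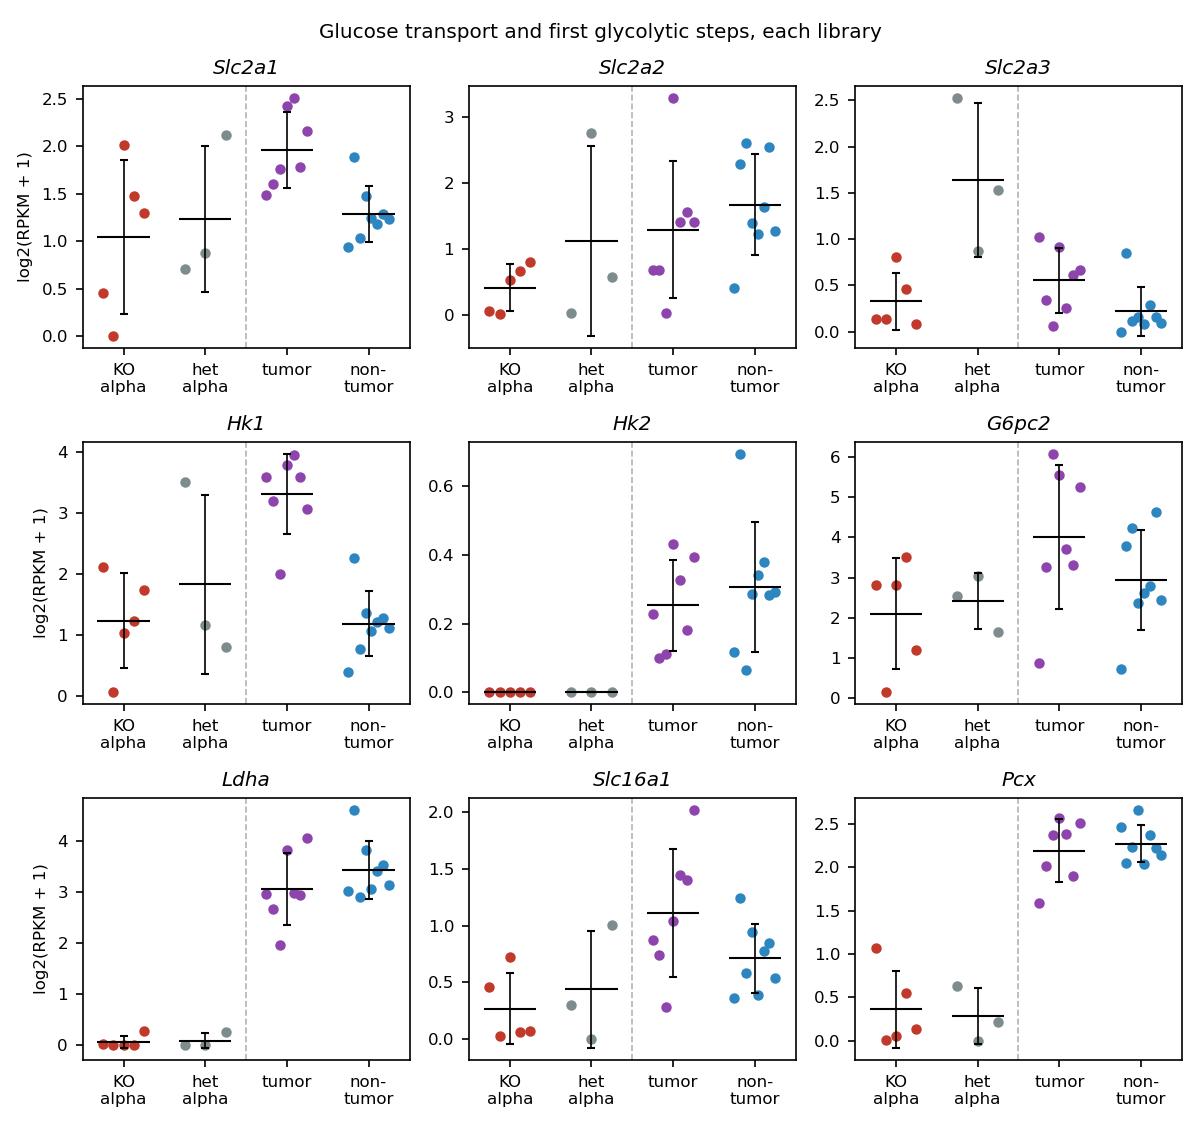
Level of each of the 9 genes as log2(RPKM + 1) in every library (points), by group on the horizontal axis, with the group mean (bar) and SD (whiskers); the dashed line parts the alpha cell libraries from the tissue libraries. Hk2 lies at 0 in all 8 alpha cell libraries, 6 of 7 tumors lie above every non-tumor sample for Hk1, and G6pc2 spans from 0.85 to 66.2 RPKM within the tumors.

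The start regions of 4 members are given below: the islet-associated G6pc2 and Slc2a2, and Hk2 and Ldha, which were listed at or near 0 in sorted alpha cells. Slc2a2 was low there too, with a median of 0.451 RPKM in knockout and 0.489 RPKM in heterozygous libraries. The pairs are therefore not parted by alpha cell level. Each window holds 300 bases around the first start site listed for the gene, 5′ to 3′ on the strand of the gene, from RefSeq on GRCm38.p6. Capitals mark ACGTG on either strand, 1 form of the core of the element bound by hypoxia-inducible factor. Other forms of that core were not searched, so a window without ACGTG may still hold one. The E-box CACGTG, which MYC and related factors can bind, contains ACGTG.
G6pc2 (chr2:69210823-69211122, plus strand): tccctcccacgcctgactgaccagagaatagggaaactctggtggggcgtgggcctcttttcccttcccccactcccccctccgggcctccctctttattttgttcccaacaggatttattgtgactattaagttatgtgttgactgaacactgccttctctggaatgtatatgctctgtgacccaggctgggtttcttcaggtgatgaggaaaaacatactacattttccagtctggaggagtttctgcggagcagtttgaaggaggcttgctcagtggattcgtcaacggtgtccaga
Slc2a2 (chr3:28697653-28697952, plus strand): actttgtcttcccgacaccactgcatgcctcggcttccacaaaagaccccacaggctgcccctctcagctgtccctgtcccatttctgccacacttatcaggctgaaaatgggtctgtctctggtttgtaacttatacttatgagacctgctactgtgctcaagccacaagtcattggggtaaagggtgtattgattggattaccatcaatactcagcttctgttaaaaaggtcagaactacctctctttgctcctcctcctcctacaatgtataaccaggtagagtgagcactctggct
Hk2 (chr6:82774405-82774704, minus strand): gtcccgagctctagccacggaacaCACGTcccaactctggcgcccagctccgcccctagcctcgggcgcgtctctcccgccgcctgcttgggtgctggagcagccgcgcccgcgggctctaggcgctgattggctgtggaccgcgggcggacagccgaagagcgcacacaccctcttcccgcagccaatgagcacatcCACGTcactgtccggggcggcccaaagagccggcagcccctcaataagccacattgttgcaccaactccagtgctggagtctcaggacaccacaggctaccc
Ldha (chr7:46845554-46845853, plus strand): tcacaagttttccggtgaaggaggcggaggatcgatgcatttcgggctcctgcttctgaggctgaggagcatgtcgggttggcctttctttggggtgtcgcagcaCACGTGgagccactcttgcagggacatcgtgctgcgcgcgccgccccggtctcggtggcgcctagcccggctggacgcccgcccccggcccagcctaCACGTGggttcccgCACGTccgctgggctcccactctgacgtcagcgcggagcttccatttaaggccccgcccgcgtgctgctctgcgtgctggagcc
The windows of G6pc2 and Slc2a2 held no ACGTG, that of Hk2 held 2 and that of Ldha held 3, of which 2 are the full CACGTG. Of 27025 such windows over the genome, 1 per gene, 19.7% held ACGTG and 7.24% held CACGTG. Of the other members, the first window of Slc16a1 held 2 stretches, that of Pcx 2, that of Slc2a1 1 and that of Hk1 0. No window was available for Slc2a3. GC content was 50.7% in the printed window of G6pc2, 48.0% in that of Slc2a2 and 67.3% in those of Hk2 and Ldha. The part of GC content in the counts was not tested. Second listed starts held 1 for G6pc2, 0 for Ldha, 2 for Hk1 and 0 for Pcx, so the counts depend on the start taken, and the files do not tell which start was used. These letter matches describe the windows and show no binding.

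Among alpha cells, none of the members was called different between knockout and heterozygous libraries. Only 3 of the 9, Slc2a1, Hk1 and G6pc2, reached 1 RPKM in at least 3 libraries and were tested among 10718 genes with limma (Benjamini-Hochberg adjusted p under 0.05), which called 0.261% of all genes tested. The other 6 were too low to test under that filter. All of them but Hk2, which was at 0 in every alpha cell library, were fitted in an alternative without it. There limma called 0 of 19527 genes, while 1443 had an unadjusted p under 0.05. Slc2a3 also passed the filter when heterozygous library 2 was left out (log2 difference -1.70, SE 0.48, limma adjusted p = 0.345).

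Slc2a3, the high-affinity glucose transporter best known from neurons, was the 1 member whose alpha cell groups did not overlap. It had 0.102, 0.097, 0.75, 0.38 and 0.058 RPKM in the 5 knockout libraries, against 4.764, 0.823 and 1.885 RPKM in the 3 heterozygous libraries. Every knockout value was thus under every heterozygous value, by a narrow margin between 0.75 and 0.823 RPKM. In the fit without the filter the log2 difference was -1.32 (SE 0.41) with a limma adjusted p of 0.573. In that fit 2.39% of the genes had knockout libraries all lower, and the depth of these libraries is unknown.

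Slc2a1, the widely expressed basal glucose transporter, had 0.372, 0, 3.046, 1.774 and 1.46 RPKM in knockout alpha cells, against 0.631, 0.831 and 3.35 RPKM in heterozygous alpha cells. The groups overlapped, and the log2 difference of -0.18 (SE 0.55, limma adjusted p = 0.935) was within the spread. Slc2a2, the low-affinity transporter of beta cells and liver, had 0.043, 0.015, 0.451, 0.585 and 0.753 RPKM in knockout libraries, against 0.027, 5.741 and 0.489 RPKM in heterozygous libraries. One high value, in heterozygous library 2, stood out, in a library whose summed acinar marker level was 3090 RPKM, against 6.98 to 59.5 RPKM in the knockout libraries. Its summed beta cell marker level, 721.8 RPKM, lay within the 249.1 to 733.9 RPKM of the knockout libraries. The part of acinar RNA in that value was not tested.

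Hk1, the hexokinase of most tissues, had 3.302, 0.043, 1.035, 1.34 and 2.333 RPKM in knockout alpha cells, against 10.3, 1.242 and 0.747 RPKM in heterozygous alpha cells. Its log2 difference was -0.59 (SE 0.66, limma adjusted p = 0.777), and without heterozygous library 1 it was 0.25, so the sign rested on that library. G6pc2, which encodes the islet glucose-6-phosphatase subunit, had 6.007, 0.114, 6.047, 10.4 and 1.307 RPKM in knockout libraries, against 4.825, 7.185 and 2.161 RPKM in heterozygous libraries. Knockout library 4 was the highest of all 8 and knockout library 2 the lowest, so the groups overlapped, and the log2 difference was -0.31 (SE 0.71, limma adjusted p = 0.907). Knockout library 2 was lowest of its group for 6 of the 8 members seen above 0.

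Detection differed among the alpha cell libraries: 2 knockout and 2 heterozygous libraries had under 15000 genes above 0 and the other 4 had more. Among the libraries under 15000 genes the knockout minus heterozygous log2 difference was -1.31 for G6pc2, -1.25 for Hk1 and -0.56 for Slc2a1. Among those over 15000 genes, with 3 knockout and 1 heterozygous library, it was 0.85 for G6pc2, 0.52 for Hk1 and -0.53 for Slc2a1. The direction for G6pc2 and Hk1 therefore differed between the sets, and that for Slc2a1 did not. The summed level of 8 immediate early genes, which respond to stress and handling, was 173.5 to 569.6 RPKM in knockout libraries and 905.2 to 1344 RPKM in heterozygous libraries, without overlap, and its part in the alpha cell values was not tested.

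For lactate and pyruvate in alpha cells, all values were low. Ldha was listed at 0.019, 0, 0, 0 and 0.21 RPKM in knockout libraries, against 0, 0 and 0.195 RPKM in heterozygous libraries. Slc16a1, the proton-linked carrier MCT1 that moves lactate and pyruvate across the plasma membrane, had 0.375, 0.017, 0.652, 0.042 and 0.052 RPKM in knockout libraries, against 0.234, 0 and 1.011 RPKM in heterozygous libraries. Pcx, which makes oxaloacetate from pyruvate in mitochondria, had 1.095, 0.009, 0.04, 0.459 and 0.095 RPKM in knockout libraries, against 0.55, 0 and 0.165 RPKM in heterozygous libraries. The groups overlapped for each of these 3 genes, and the levels were low in both genotypes.

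In tissue, 6 of the 9 members were tested (Slc2a1, Slc2a2, Hk1, G6pc2, Ldha and Pcx), and Hk1 and Slc2a1 were called higher in tumors on the deposited scale. That count has to be read against the background: limma called 90.7% of 10220 genes higher in tumors and 3.68% lower, and the median log2 difference of all genes was 1.46. The summed acinar level given above moved with this shift, and its part in it was not tested. Centring each library on its median gene removed a shift of 1.54, after which limma called 28.6% of genes higher and 36.7% lower. On that scale 1 tested member, Hk1, was higher, 4 (Slc2a1, Slc2a2, Ldha and Pcx) were lower and G6pc2 was not called. Of the 6 tested members, 5 thus had a deposited difference below that of the median gene.

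Hk1 had the largest deposited difference of the 6 tested members. It had 2.97 to 14.4 RPKM in tumors (median 10.9), against 0.315 to 3.76 RPKM in non-tumor tissue (median 1.23). In 6 of 7 tumors it lay above every non-tumor sample, and tumor 3, at 2.97 RPKM, was the exception. The means were 9.65 ± 3.84 RPKM in tumors, against 1.41 ± 1.03 RPKM in non-tumor tissue (SD, n = 7 and 8). The log2 difference was 2.13 (SE 0.27, limma adjusted p = 6.09e-07), or 0.59 (SE 0.22, adjusted p = 0.0248) relative to the median gene. On the centred log2 scale the groups overlapped, with tumors at 1.32 to 2.96 and non-tumor samples at 1.40 to 2.51. Leaving out each library in turn kept the deposited value between 2.01 and 2.35.

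Hk2, the insulin- and hypoxia-responsive hexokinase of muscle and of many tumors, stayed low in both tissues. It ranged from 0.0718 to 0.349 RPKM in tumors (median 0.170) and from 0.045 to 0.618 RPKM in non-tumor tissue (median 0.222). The groups overlapped, and no tumor exceeded the highest non-tumor sample. Too low for the filter, it had a log2 difference of -0.05 without it (SE 0.08, limma adjusted p = 0.564), where limma called 70.5% of 17573 genes higher.

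Slc2a1 had 1.802 to 4.69 RPKM in tumors (median 2.44), against 0.914 to 2.70 RPKM in non-tumor tissue (median 1.36). In 3 of 7 tumors it exceeded all non-tumor samples. The log2 difference was 0.68 (SE 0.17, limma adjusted p = 0.00114) on the deposited scale and -0.86 (SE 0.11, adjusted p = 3.12e-06) relative to the median gene, where the groups did not overlap. Of all genes, 17.2% had tumors all lower on the centred scale. With the summed acinar level as a covariate the difference of Slc2a1 was 0.49 (SE 0.38, limma adjusted p = 0.231) and was no longer called. That of Hk1 was 1.65 (SE 0.60, limma adjusted p = 0.0176). The acinar level did not overlap between the groups, so this fit separates it poorly from tumor status and the SE widened. The summed level of 6 endothelial markers was 67.5 to 189.7 RPKM in tumors, against 16.5 to 84.5 RPKM in non-tumor tissue. Endothelium is known to use this transporter, and the part of its RNA in the level of Slc2a1 was not tested.

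Slc2a2 varied more within the tumors than between the groups. The tumors, 1 to 7, had 0.615, 0.608, 0.0202, 8.78, 1.67, 1.95 and 1.65 RPKM, and non-tumor tissue had 0.326 to 5.12 RPKM (median 1.87). Tumor 4 was above all non-tumor samples and tumor 3 was nearly without the transcript. The log2 difference was -0.38 (SE 0.40, limma adjusted p = 0.371) on the deposited scale and -1.92 (SE 0.36, adjusted p = 0.000199) relative to the median gene. Without tumor 4 the deposited value was -0.71 and passed (limma adjusted p = 0.0474). Slc2a3 had 0.0429 to 1.03 RPKM in tumors (median 0.524), against 0 to 0.796 RPKM in non-tumor tissue (median 0.0973). The groups overlapped, and the log2 difference without the filter was 0.34 (SE 0.15, limma adjusted p = 0.0537).

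G6pc2 had the widest range in RPKM. Tumors 1 to 7 had 0.85, 8.51, 66.2, 45.6, 12.0, 8.85 and 37.3 RPKM, and non-tumor tissue had 0.655 to 23.6 RPKM (median 5.52). In 3 of 7 tumors (3, 4 and 7) it exceeded all non-tumor samples, whereas tumor 1 was lower than 7 of 8 of them. The spread was too large for a call: the log2 difference was 1.05 (SE 0.67, limma adjusted p = 0.142) on the deposited scale and -0.49 (SE 0.66, adjusted p = 0.534) relative to the median gene. Without tumor 1 the deposited value was 1.57 and passed (limma adjusted p = 0.0152).

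Ldha had 2.90 to 15.7 RPKM in tumors (median 6.74), against 6.498 to 23.3 RPKM in non-tumor tissue (median 8.67). Its deposited log2 difference was -0.38 (SE 0.29, limma adjusted p = 0.216), and relative to the median gene it was -1.92 (SE 0.23, adjusted p = 1.42e-06) with no overlap between the groups. With the acinar covariate the difference of Ldha was 0.27 (SE 0.62, limma adjusted p = 0.692), a turned sign that lay within its SE. Pcx had nearly equal means of 3.68 ± 1.10 RPKM in tumors, against 3.87 ± 0.761 RPKM in non-tumor tissue (SD, n = 7 and 8). That is a log2 difference of -0.08 (SE 0.15, limma adjusted p = 0.607), and of -1.62 (SE 0.16, adjusted p = 1.18e-07) relative to the median gene, again with no overlap. Slc16a1 had 0.215 to 3.05 RPKM in tumors (median 1.06), against 0.283 to 1.37 RPKM in non-tumor tissue (median 0.604), with a log2 difference of 0.40 without the filter (SE 0.22, limma adjusted p = 0.108). Its groups overlapped, with tumors 5, 6 and 7 above all non-tumor samples.

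**Figure D2:**
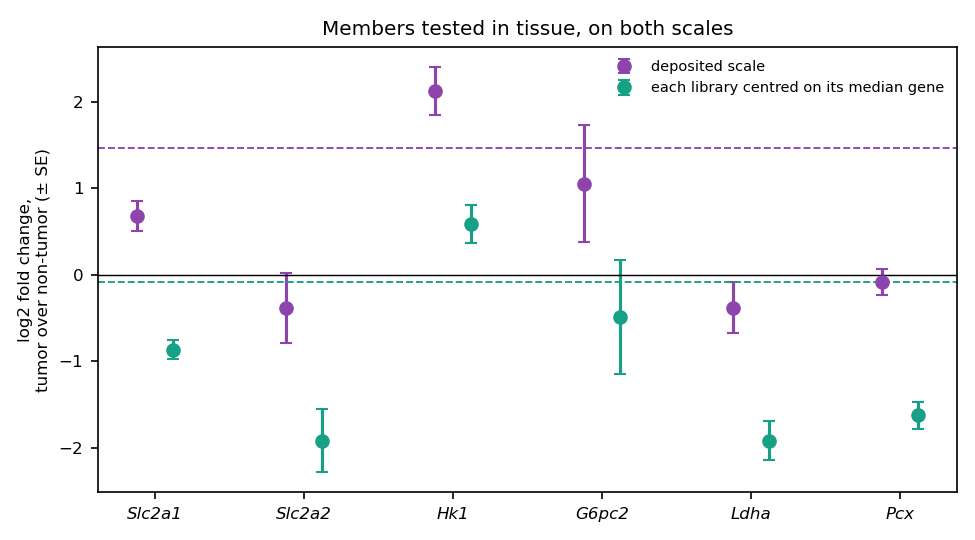
Log2 fold change (tumor over non-tumor tissue, with SE) of the 6 members tested, on the deposited scale and after centring each library on its median gene; dashed lines mark the median of all genes on each scale. Hk1 alone lies above the dashed line on both scales, and Slc2a1 is at 0.68 on the deposited scale and at -0.86 on the centred scale.

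Ratios between members within a library do not depend on a factor common to that library, apart from the pseudocount of 1 RPKM. Of 7 such ratios in each comparison, the only one past the threshold after adjustment over all 14 was Hk1 over Hk2 in tissue. Its mean log2 value was 3.05 ± 0.60 in tumors and 0.87 ± 0.36 in non-tumor tissue (SD, n = 7 and 8), every tumor was above every non-tumor sample, and the exact permutation test gave p = 0.000311, the smallest that its 6435 regroupings allow (two-sided, adjusted p = 0.00435). The difference of 2.18 stayed between 2.08 and 2.38 when any library was left out. Hk2 was under 1 RPKM in every tissue sample, so with a pseudocount of 1 RPKM this ratio mostly restated Hk1. Hk1 alone differed by 2.13 on the deposited scale and by 0.59 relative to the median gene. Slc2a1 over Slc2a2 averaged 0.66 ± 0.81 in tumors and -0.39 ± 0.71 in non-tumor tissue, with an exact permutation p of 0.0199 that did not pass adjustment (adjusted p = 0.139). Without tumor 4, the tumor richest in Slc2a2, the adjusted p was 0.00932. The ratio of Ldha to Ldhb, the subunit that favours the reverse reaction, averaged 2.11 ± 0.58 in tumors and 2.44 ± 0.50 in non-tumor tissue (exact permutation adjusted p = 0.5).

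In alpha cells none of the 7 ratios passed, but the test had little room: the smallest p that 5 against 3 libraries can give in the exact permutation test is 0.0357, which for a single ratio does not pass adjustment over 14 tests. Hk2 was at 0 in all 8 libraries and Slc16a3 in 7 of 8, so the ratios to these genes mostly restate Hk1 and Slc16a1. Slc2a1 over Slc2a3 had the largest difference: it averaged 0.72 ± 0.60 in knockout and -0.41 ± 1.26 in heterozygous libraries, with an adjusted p of 0.5 by that exact test.

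**Figure D3:**
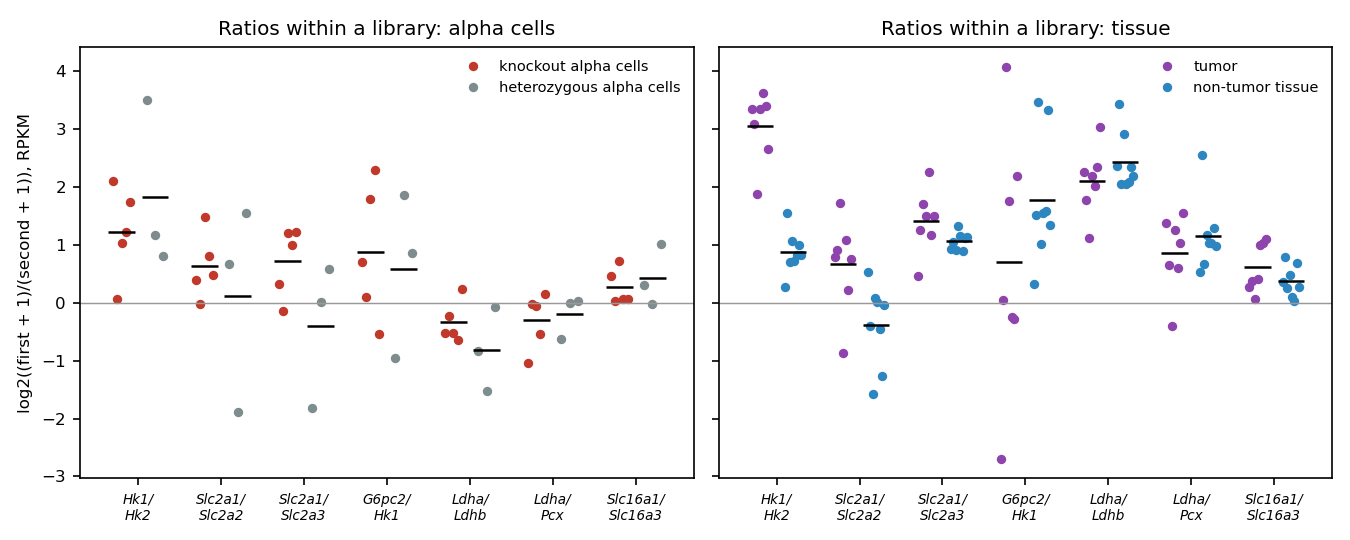
Log2 ratio of 7 pairs of genes within each library (points; bars are group means), computed as (first + 1)/(second + 1) from RPKM, for alpha cells (left) and tissue (right). The tumors lie between 1.88 and 3.62 for Hk1 over Hk2, all above the non-tumor samples, which lie between 0.28 and 1.56.

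Slc2a2 and G6pc2 are markers of beta cells, so their tissue levels were set beside the summed level of 7 other beta cell markers (Ins1, Ins2, Iapp, Mafa, Ucn3, Nkx6-1 and Pdx1), in 4 relations. That sum was 68.0 to 7586 RPKM in tumors, against 286.4 to 10503 RPKM in non-tumor tissue. Slc2a2 followed it in tumors, with r = 0.888 (exact permutation p = 0.00893, adjusted 0.0119), and Spearman's rho was 0.75 (exact permutation p = 0.0663, adjusted 0.0884). In non-tumor tissue r was 0.922 for Slc2a2 (exact permutation p = 0.00253, adjusted 0.00506) and rho 0.714 (exact permutation p = 0.0576, adjusted 0.0884). Neither rank correlation of Slc2a2 passed the threshold. Without the 2 samples farthest from the median marker sum, r was 0.835 in tumors and 0.797 in non-tumor tissue.

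G6pc2 followed the same sum in non-tumor tissue, with r = 0.970 (exact permutation p = 0.000446, adjusted 0.00179), rho = 0.905 (exact permutation p = 0.00456, adjusted 0.0183) and r = 0.895 without the 2 farthest samples. In tumors no such relation was seen: r was 0.382 (exact permutation p = 0.408, adjusted 0.408) and rho 0.286 (exact permutation p = 0.556, adjusted 0.556), and r was -0.721 without tumors 4 and 1. The difference between the tissues was not tested. Tumor 3 shows the contrast most plainly, with the highest G6pc2 of all 15 samples, 66.2 RPKM, beside 0.0202 RPKM of Slc2a2 and a beta marker sum of 96.7 RPKM. Tumor 4 had 45.6 RPKM of G6pc2 with 8.78 RPKM of Slc2a2 and a beta marker sum of 7586 RPKM. Sorted alpha cells of both genotypes had G6pc2 above 1 RPKM in all libraries but knockout library 2. Their beta marker sums were 249.1 to 733.9 RPKM in knockout and 462.7 to 1989.9 RPKM in heterozygous libraries. The part of beta cell RNA in these G6pc2 values was not tested.

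**Figure D4:**
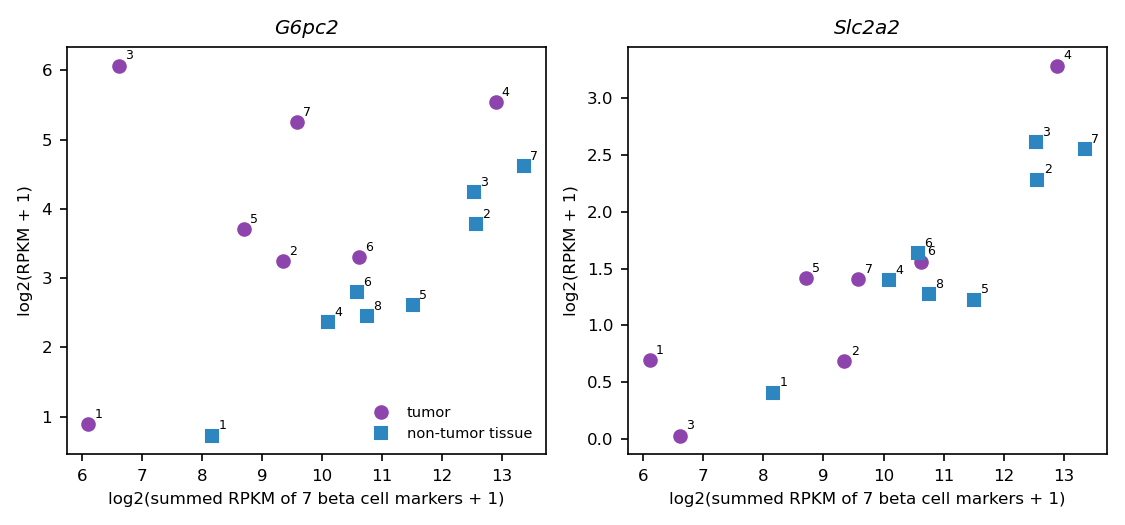
G6pc2 (left) and Slc2a2 (right) as log2(RPKM + 1) against the summed level of 7 beta cell markers as log2(RPKM + 1), in tumors (circles) and non-tumor tissue (squares), with replicate numbers beside the points. Non-tumor samples rise along a line for both genes, as do tumors for Slc2a2, and tumor 3 lies at the top left for G6pc2.

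Single libraries carried several extremes. Tumor 3 was the lowest tumor for 5 of the 9 members (Slc2a2, Slc2a3, Hk1, Ldha and Slc16a1) and the highest for G6pc2. Non-tumor sample 2 was the highest of its group for 6 members (Slc2a1, Slc2a3, Hk1, Hk2, Ldha and Slc16a1). It also had the highest summed level of 6 immune markers among all 15 tissue samples, 215.6 RPKM, against 3.99 to 54.4 RPKM in the other 7 non-tumor samples and 36.5 to 196.0 RPKM in tumors. Non-tumor sample 1, the one with 3.99 RPKM, was lowest for 6 members. The part of immune RNA in these levels was not tested.

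The transporter members were set beside the rest of their family as shares of the summed RPKM of 11 facilitative transporters, which needs no scale between libraries. The leading transcript in alpha cells and tumors was none of the 3 members but Slc2a5, which encodes the fructose carrier GLUT5. It led in 5 of 5 knockout and 3 of 3 heterozygous alpha cell libraries and in 7 of 7 tumors, with 57.1% to 75.0% of the family in knockout cells, 52.4% to 60.3% in heterozygous cells and 58.2% to 82.5% in tumors. In non-tumor tissue it led in 0 of 8 samples and held 7.36% to 18.5%. There Slc2a2 led in 4 samples, Slc2a1 in 2 and Slc2a8 in 2. None of Slc2a1, Slc2a2 and Slc2a3 led in a library of alpha cells or tumors. Slc2a1 held 0% to 20.8% of the family in knockout cells, 3.85% to 15.2% in heterozygous cells, 5.62% to 10.7% in tumors and 9.82% to 27.2% in non-tumor tissue. These shares were computed after values had been seen and were not tested.

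**Figure D5:**
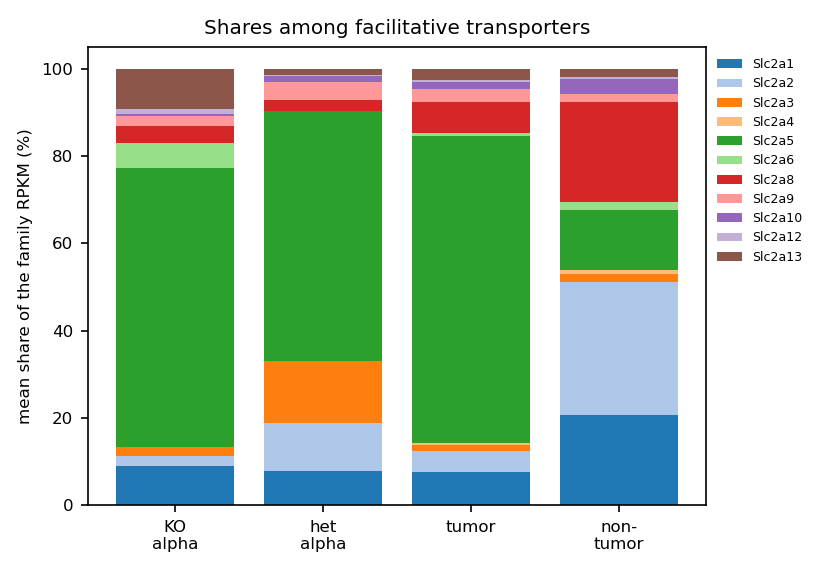
Mean share (%) of each gene in the summed RPKM of 11 facilitative transporter genes, by group on the horizontal axis. Slc2a5 fills most of the bar in knockout alpha cells, heterozygous alpha cells and tumors but 13.7% of that in non-tumor tissue.

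The rest of the pathway was followed in 12 lists with 94 genes, of which 60 were tested in each comparison. In alpha cells 0 of 60 were called in either direction by limma, and 1132 of 10718 genes had an unadjusted p under 0.05. The gene nearest the threshold was Mpc2, a subunit of the mitochondrial pyruvate carrier, at 27.1 ± 10.6 RPKM in knockout and 6.92 ± 2.04 RPKM in heterozygous alpha cells (SD, n = 5 and 3; log2 difference 1.79, limma adjusted p = 0.0740). Txnip, a glucose-induced inhibitor of glucose uptake, averaged 41.2 ± 9.82 RPKM in knockout and 69.2 ± 4.89 RPKM in heterozygous alpha cells (log2 difference -0.77, limma adjusted p = 0.364).

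In tissue 56 of the 60 were higher in tumors on the deposited scale, 1 was lower and 3 were not called, with a median log2 difference of 1.43 beside 1.46 over all genes tested, of which 90.7% were higher and 3.68% lower. Relative to the median gene 17 were higher, 23 lower and 20 not called, with a median of -0.11 beside -0.08 over all genes, of which 28.6% were higher and 36.7% lower. Both counts are thus near those of all genes. Of the other facilitative transporters 2 were tested, and relative to the median gene 1 was higher (Slc2a5) and 1 lower (Slc2a8). Slc2a5 averaged 27.7 ± 4.03 RPKM in tumors, against 1.11 ± 0.630 RPKM in non-tumor tissue (log2 difference 3.81, limma adjusted p = 1.04e-12, and 2.27 centred).

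Both other tested genes of the glucose-6-phosphatase system were higher on both scales, whereas G6pc2 itself was not called on either. G6pc3, the ubiquitous catalytic subunit, differed by 2.16 and by 0.62 centred, and Slc37a4, which carries glucose-6-phosphate into the endoplasmic reticulum, by 2.32 and by 0.78 centred. Of the 4 tested genes of the lactate and monocarboxylate list, 2 were higher, 1 lower and 1 not called relative to the median gene. The 2 higher were Bsg and Emb, which encode the chaperones basigin and embigin that bring monocarboxylate carriers to the membrane. Bsg averaged 335.5 ± 52.1 RPKM in tumors, against 52.6 ± 6.32 RPKM in non-tumor tissue (2.64, and 1.10 centred), and Emb averaged 54.1 ± 23.5 RPKM in tumors, against 1.95 ± 1.98 RPKM in non-tumor tissue (4.33, and 2.79 centred).

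At the entry of pyruvate to mitochondria, Pdk4, a kinase that inhibits pyruvate dehydrogenase, averaged 48.5 ± 18.6 RPKM in tumors, against 0.306 ± 0.290 RPKM in non-tumor tissue (5.17, limma adjusted p = 5.21e-13, and 3.63 centred). Of the 11 tested genes of that list 2 were higher, 4 lower and 5 not called relative to the median gene. In lower glycolysis 2 of 7 tested genes were higher, 1 lower and 4 not called on that scale. Of the higher ones, Pkm, pyruvate kinase, averaged 52.7 ± 9.50 RPKM in tumors, against 9.35 ± 4.57 RPKM in non-tumor tissue (2.45, and 0.91 centred), and Eno2, the neuronal and neuroendocrine enolase, differed by 2.69 and by 1.15 centred. In the pentose phosphate list 1 of 8 was higher, 5 were lower and 2 not called relative to the median gene, and no list was tested as a group. Its entry enzyme G6pdx was higher on the deposited scale (1.21) and lower when centred (-0.33). Fbp2, the muscle form of fructose bisphosphatase, was the 1 gene lower on the deposited scale, at 0.926 ± 0.941 RPKM in tumors, against 1.47 ± 0.390 RPKM in non-tumor tissue (-0.45, limma adjusted p = 0.0349). The part of the acinar level of the samples in the values of these lists was not tested gene by gene.

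For each tested member the genes with the most similar profile over the 15 tissue libraries were found by the root mean square difference of centred log2 values, among about 4250 genes of at least 5 RPKM. Nearest to Hk1 were 2410002F23Rik (0.28), Abca2 (0.30) and Ap2a1 (0.30), where Hk1 itself had an SD of 0.54. For Slc2a1 they were Fgfr1op2 (0.18), Ctdsp1 (0.19) and Rpl7l1 (0.19), against an SD of 0.49, and for Pcx they were Plk2 (0.15), Gcdh (0.17) and Dtnb (0.20), against an SD of 0.89. Ldha was nearest to Pycard (0.29), Ier2 (0.31) and Cnp (0.33), against an SD of 1.10, and Slc2a2 to Tgm2 (0.46), Ezr (0.59) and Ier2 (0.59), against an SD of 1.25. G6pc2 had no close neighbour: the nearest were Cldn7 (0.91), Bcam (0.92) and Prss53 (0.94), with an SD of 1.42.

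The reads behind the tissue values could be estimated because each gene had a common step of RPKM within a library, and they are lower bounds up to a factor common to a gene. Hk1 rested on 276 to 1378 reads in tumors and 20 to 170 reads in non-tumor samples, and G6pc2 on 31 to 2221 reads in tumors and 15 to 308 in non-tumor samples. Hk2 rested on only 6 to 35 reads in tumors and 2 to 26 in non-tumor samples, and Slc2a3 on 2 to 52 in tumors and 0 to 18 in non-tumor samples. Differences of the last pair are thus poorly resolved. The Ldha transcript matches 11 other genes, all pseudogenes, at 90% identity or more over at least 500 bases, whereas none of the other 8 members has such a copy. Gapdh, Pgk1 and Pgam1, other glycolytic genes with such copies, were listed at or near 0 throughout the tissue table. Gapdh was at 0 in 8 of 8 non-tumor samples. Pkm, with 6 such copies, was not near 0: its mean was 52.7 RPKM over the tumors, against 9.35 RPKM over the non-tumor samples. Aldoa, Eno1 and Tpi1 also have such copies, and their levels are not given here. Whether copies changed a listed level was not tested, so the listed levels of Ldha and Pkm are uncertain. In the alpha cell table Gapdh was also low, at 0.179 to 1.744 RPKM in knockout and 0.365 to 4.297 RPKM in heterozygous libraries, and there the level of Ldha is uncertain too. Annotated antisense genes overlap Slc2a1, Slc2a2, Hk1 and Hk2, the pseudogene Gm4482 lies within Slc2a3, the opposite-strand gene Lrfn4 overlaps Pcx, and no source used here says that strand was used in counting.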

How the data were processed

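RNA was sequenced from 8 libraries of sorted alpha cells and 15 of tissue. Per the labels' protocols, RNA came from an RNeasy kit and libraries from a TruSeq RNA kit. CASAVA 1.8, GSNAP and GRCm38 are named, without roles, per the submitters' processing notes. The sources used here give no counting tool, gene annotation or read totals. The authors deposited RPKM per gene in 2 tables, 1 per comparison; no header gives the unit, which was taken from the values themselves. All 23 columns were matched to libraries by identifiers in the labels. Among alpha cell entries, 299 had no symbol, and 4 older symbols of listed genes were matched through gene identifiers.

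Each table was tested alone with limma 3.58.1 (R 4.3.3) on log2(RPKM + 1), with a mean-dependent prior variance, over genes of at least 1 RPKM in 3 alpha cell or 7 tissue libraries, with Benjamini-Hochberg adjustment over all genes and a threshold of 0.05. Ratios and correlations used exact two-sided permutation tests. The fitting step was tested on simulated data. Alternatives were a pseudocount of 0.1, no filter, a mean filter of 5 RPKM, median and quantile scaling, array weights, a covariate (acinar level in tissue, genes above 0 in alpha cells), a replicate block and leaving out each library. Median centring combined with a pseudocount of 0.1 was chosen after seeing the data.

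The members, the gene lists and the ratios were chosen with earlier results of these data known. Named besides the members were the second gene of each ratio, the 2 genes of lowest adjusted p called per list (the gene of lowest p where none was called) and the 3 nearest profiles per member; not all of them are printed, and 1 is not reported here. Slc2a5 and Slc2a8 fall within that rule. The other non-member genes of the family shares fall outside it and were named after their values were seen. Gapdh, Pgk1, Pgam1, Aldoa, Eno1 and Tpi1, named for their copies, fall outside it too. Gene positions and transcript copies come from GENCODE M21 on GRCm38. The depth of the alpha cell libraries is unknown.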

Additional observations from a re-analysis of the deposited data

Results flagged for a closer look

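In 47 groups of 4 to 10 values, 3 had a library far from the others by Dixon's test, where chance gives about 1 in 20. Ldha was 0.21 RPKM in knockout alpha cell library 5, against 0 to 0.019 RPKM in the other 4 knockout libraries; heterozygous library 3 had 0.195 RPKM. That knockout library also had the highest summed immune marker level of the alpha cells, 69.3 RPKM, against 0.141 to 14.7 RPKM in the other 7, and its part in the Ldha value was not tested. Slc2a3 was 0.796 RPKM in non-tumor sample 2, against at most 0.223 RPKM in the other 7 non-tumor samples. The log2 ratio of Ldha to Pcx was 2.56 in the same non-tumor sample, against a group mean of 1.16, with the immune marker level given for it above.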

How the results depend on the processing

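Hk1 stayed called higher in tumors in all 24 alternatives run, and the tissue ratio of Hk1 to Hk2 in all 16. The call of Slc2a1 on the deposited scale turned to -0.86 with median centring, -0.71 with quantile scaling and -1.02 with centring and a pseudocount of 0.1. Other turned signs were of values that were not called as deposited. G6pc2 in tissue was -0.49 with median centring and -0.49 with quantile scaling, and -0.85 with centring and a pseudocount of 0.1. Array weights gave 0.00095 for Slc2a2 and 0.0062 for Ldha in tissue, and the acinar covariate gave 0.27 for Ldha.

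With median, quantile and centred 0.1 scaling, 1 member was called higher and 4 lower in tumors. With a mean filter of 5 RPKM 1 was called higher, but that filter kept only Hk1, G6pc2 and Ldha, so Slc2a1 was not tested. With the acinar covariate 1 was called higher, and Slc2a1 was tested but not called. Leaving out a library gave 2 to 3 members higher and 0 to 1 lower. With the settings of the report 9271 genes were called higher and 376 lower in tumors. Genes called higher were 3909 with the mean filter, 2927 with median centring, 3335 with quantile scaling and 3197 with centring and a pseudocount of 0.1. Genes called lower were 614 without a filter, 178 with the mean filter, 3746 with median centring, 3042 with quantile scaling, 3120 with centring and a pseudocount of 0.1 and 62 with the acinar covariate.

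In alpha cells 17 genes were called higher and 11 lower with the settings of the report. The genes called higher were 0 without a filter, 28 with quantile scaling, 51 with array weights and 7 to 29 with a library left out (7 without heterozygous library 2). Those called lower were 1 with a pseudocount of 0.1, 0 without a filter, 18 with quantile scaling, 39 with array weights and 0 to 33 with a library left out (0 without heterozygous library 2, 33 without heterozygous library 1). Array weights turned Hk1 to 0.063 and G6pc2 to 0.77. Leaving out a library gave -0.45 to 0.26 for Slc2a1, -1.10 to 0.25 for Hk1, -0.69 to 0.18 for G6pc2 and, in tissue, -0.14 to 0.020 for Pcx. For ratios it gave -1.10 to 0.25 (Hk1 to Hk2), -0.48 to 1.24 (Slc2a1 to Slc2a2), -0.49 to 0.92 (G6pc2 to Hk1), -0.32 to 0.081 (Ldha to Pcx) and -0.39 to 0.13 (Slc16a1 to Slc16a3) in alpha cells. In tissue the ratio of Slc2a1 to Slc2a3 was -0.18 with a pseudocount of 0.1, 0.20 to 0.50 with a library left out and past the threshold only without tumor 1 (adjusted p = 0.0280), and that of Slc2a1 to Slc2a2 was 0.88 to 1.31. The cause of these turns was not tested.

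With the replicate number as a block, 2 genes were called higher and 1 lower in alpha cells, 9230 higher and 359 lower in tissue, and G6pc2 was called in tissue at 0.98 (adjusted p = 0.0174). The numbers are not shown to pair libraries: deviations of same-numbered libraries correlated at 0.00127, 0.0149 and 0.0872 in alpha cells and at -0.222 to 0.149 in tissue.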
